A study of Mus musculus with 4 samples.

Results

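The genes described here are 3 receptors for fibroblast growth factors (Fgfr1, Fgfr2 and Fgfr3), 4 intracellular inhibitors of the Sprouty and Spred family (Spry1, Spry2, Spry4 and Spred1) and the 3 ETS transcription factors of the PEA3 group (Etv1, Etv4 and Etv5). They were listed by name with earlier results of these data known, 10 of the 45706 features in the count files, and all 10 were found there by symbol. Single nuclei were profiled from the dentate gyrus of male and female mice, 6 to 8 weeks old, that carried a tamoxifen-inducible Cre (CreERT2) and the Cre-dependent reporter CAGfloxStopSun1/sfGFP, and all libraries shared this genotype and treatment. The labels give 1 cell type, adult born granule cells, for all of them, although glial and perivascular clusters are present. Tamoxifen switched on the Sun1-sfGFP nuclear envelope tag in radial glia-like stem cells (RGL), and their descendants kept it. Tagged nuclei were sorted 1, 2, 4 and 8 weeks after tamoxifen (libraries w1, w2, w4 and w8), and each library was 1 pool of 4 left dentate gyri. A week therefore had no replicate, and levels were compared between clusters over the libraries.

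Fibroblast growth factors (FGF) bind receptor tyrosine kinases at the cell surface, and the activated receptors recruit the adaptor Frs2, turn on Ras and send the signal through Raf and Mek to the MAP kinases. The PEA3 factors are activated by this cascade and their genes are among its common transcriptional targets, while Sprouty and Spred proteins are induced by it and restrain it at the level of Ras and Raf. In the dentate gyrus FGF ligands are known to sustain neural stem cells, and Fgfr3 is an established gene of astrocytes and radial glia.

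The 4 libraries held 2867 to 4243 nuclei in the authors' 13 clusters, with 13227971 to 28595331 UMIs each and a median of 4369 (w1) to 7703.5 (w8) UMIs per nucleus; 22 cell barcodes occurred in more than 1 library. Levels are given as CPM, the UMIs of a gene per 1000000 UMIs of the same library and cluster, and clusters with fewer than 10 nuclei in a library were left out, so that astrocytes (Astro, 67 nuclei), neural progenitor cells (NPC, 211), neuroblasts (NB1 and NB2) and immature neurons were measured in 3 libraries, RGL in 4 and GCmat2, the smaller of the clusters named mature granule cells, in w4 and w8 only. Of the listed markers with a feature, 6 of 7 for astrocytes and 4 of 10 for RGL had their peak in the matching cluster. The same held for 7 of 7 for NPC and 5 of 6 for neuroblasts. The 5 listed for mature granule cells all peaked in granule cell clusters, but not all in mature ones. Calb1, Grin2a and Ntng1 peaked in GCmat1 or GCmat2, whereas Icam5 and Tenm1 peaked in GCyoung, the young granule cells. Gfap, Sox9 and Hes5, listed for RGL, were highest in Astro. The summed CPM of the 7 astrocyte markers was 1433 to 2145 in Astro, 371 to 631 in RGL and 104 to 154 in NPC, and the part of astrocyte RNA in the values of RGL and NPC was not tested.

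Changes between adjacent clusters were fitted with edgeR on summed UMIs with library as a second term, and calls needed a change of 1.5 times or more and an adjusted p (over 13513 genes) of 0.05 or less. Spry1 did not pass the filter on low counts, so 9 of the 10 genes were tested. Counts out of the 10 below include Spry1, which could not be called. The clusters were made by the authors from the same expression values, and the pools hold several animals, so the p-values measure the spread between library sums and not that between animals.

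**Figure D1:**
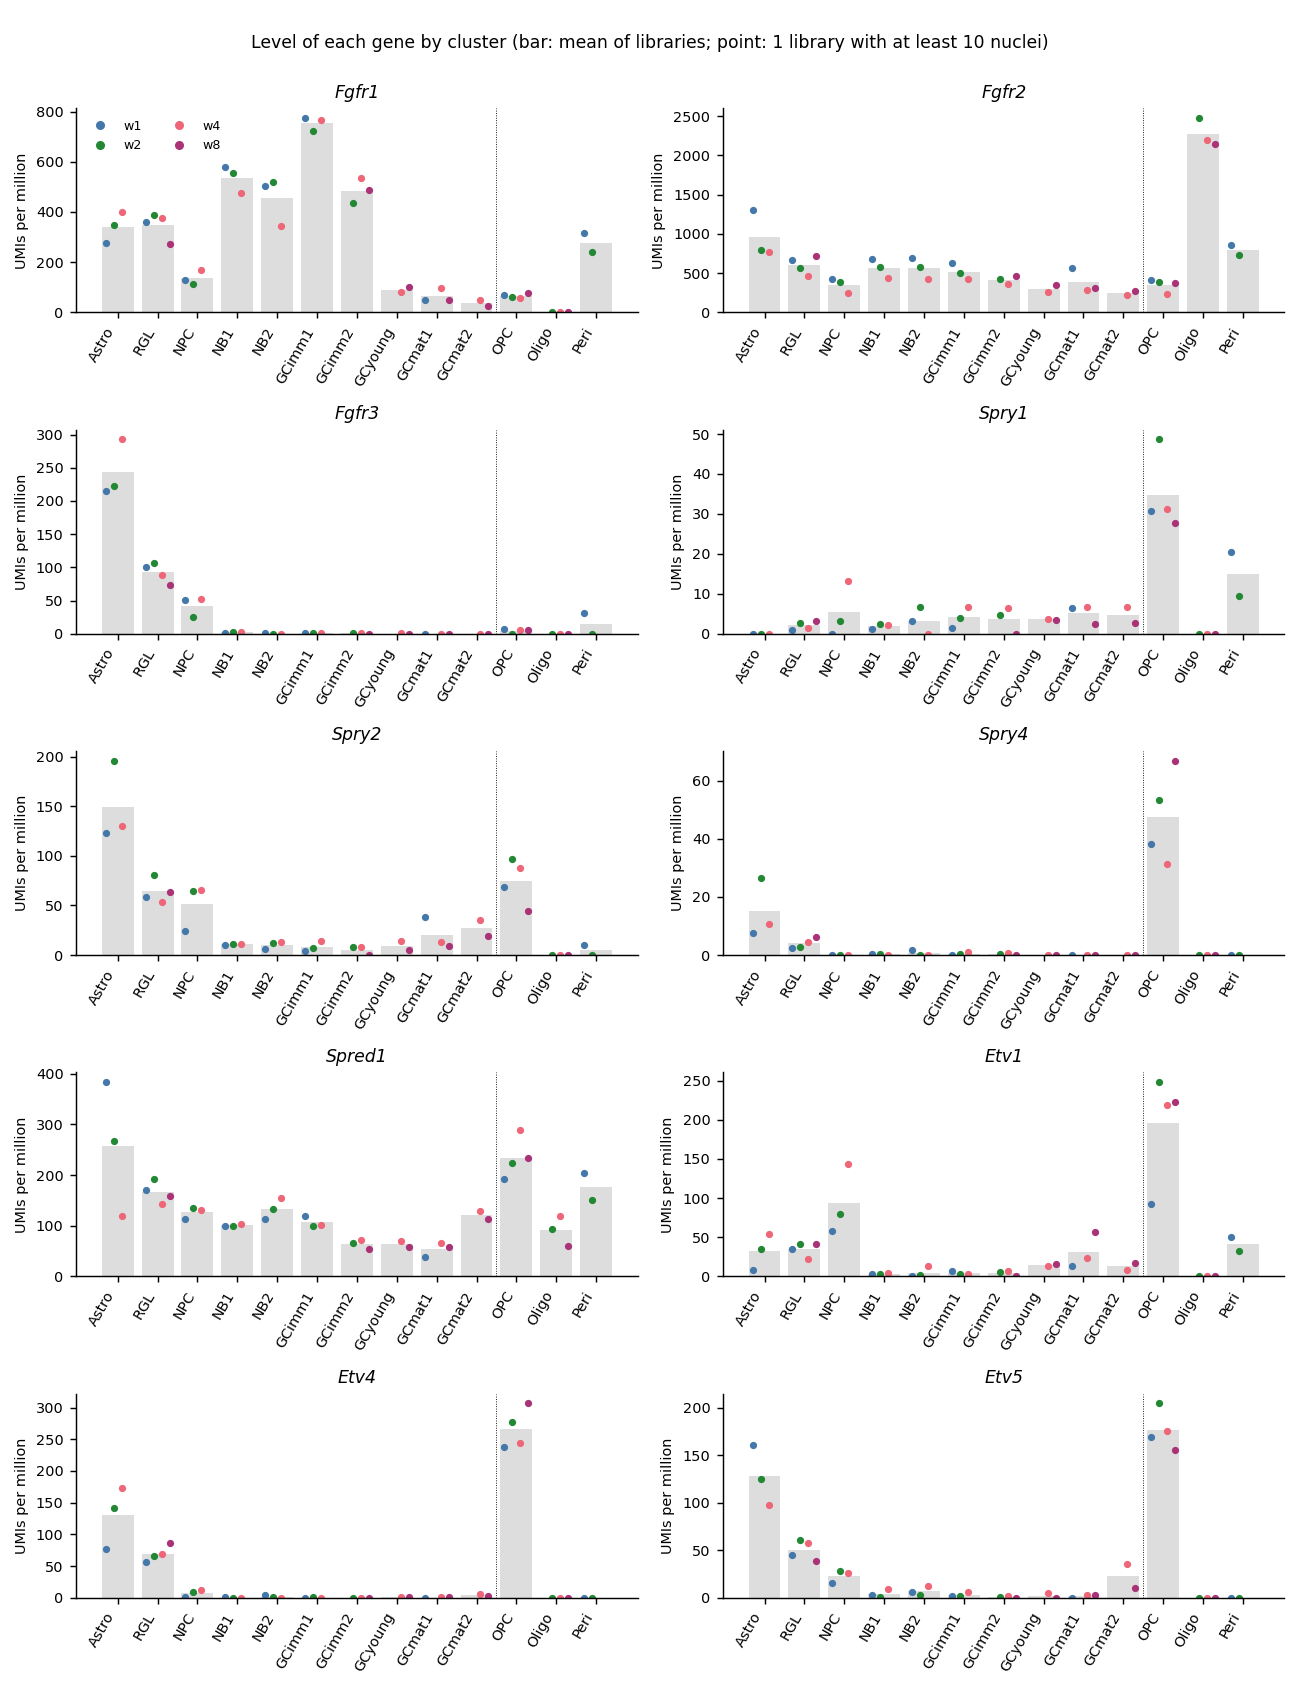
Level of each gene (vertical axis, CPM) in the 13 clusters (horizontal axis). A bar is the mean over libraries and a point is 1 library with at least 10 nuclei. The dotted line sets off the 3 clusters that no test covered. Left of the line, Fgfr3, Spry2, Etv4 and Etv5 were highest in Astro, lower in RGL and low in neuroblasts, whereas Fgfr1 peaked in GCimm1.

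The promoters of 3 genes called lower from RGL to NPC and again from NPC to NB1 are shown for the letters around their starts. For Spry2 the groups of the first call overlapped. Windows from RefSeq (GRCm38.p6) were matched by symbol for 7 of the 10 genes, and none was matched for Fgfr1, Spry4 and Etv4. Each sequence is the part of the 250 bases upstream of the RefSeq start that also lies upstream of the GENCODE gene, 5′ to 3′ on the gene's strand, with GGAA or TTCC, the core that ETS factors bind, in capitals.
Fgfr3, chr5:33721474-33721673, plus strand: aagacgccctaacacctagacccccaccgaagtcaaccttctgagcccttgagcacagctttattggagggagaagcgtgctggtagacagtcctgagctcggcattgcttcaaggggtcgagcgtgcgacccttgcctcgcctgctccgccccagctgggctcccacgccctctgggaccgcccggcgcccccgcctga
Spry2, chr14:105896820-105897069, minus strand: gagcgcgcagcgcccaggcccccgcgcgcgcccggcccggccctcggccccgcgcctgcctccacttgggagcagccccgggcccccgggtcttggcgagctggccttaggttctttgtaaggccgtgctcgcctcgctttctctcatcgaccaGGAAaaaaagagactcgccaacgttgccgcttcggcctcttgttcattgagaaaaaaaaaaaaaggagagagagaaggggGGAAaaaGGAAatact
Etv5, chr16:22439720-22439820, minus strand: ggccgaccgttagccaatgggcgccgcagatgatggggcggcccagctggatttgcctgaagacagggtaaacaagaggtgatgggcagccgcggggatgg
Spry2 held 3 such cores, and 54.7% of all RefSeq windows of 250 bases held at least 3. Neither the 200 bases of Fgfr3 nor the 101 bases of Etv5 held the core. Over all windows, the stretches of these lengths next to the RefSeq start held a median of 2 and 1. The printed parts of Fgfr3 and Etv5 are those farthest from the RefSeq start, so the positions compared differ. RefSeq gives each of these genes another start, not printed, whose 250 bases upstream held 5 cores for Fgfr3 (18.0% of all windows held as many) and 4 for Etv5 (33.4%). The full 250 bases at the printed start held 1 core for Fgfr3 and 0 for Etv5. The longer motif CCGGAAG, searched on both strands, was in 0 of 10 windows of the listed genes and in 8.86% of 32851 windows of 300 bases. The latter were not filtered by chromosome. A match or its absence is a statement about letters in the window only.

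From Astro to RGL, 5 of the 10 genes were lower and none was higher, where 9.58% of all genes tested were called, 4.77% higher and 4.82% lower. This contrast is no step of development, since Astro is outside the neuronal lineage and the paper describes RGL as a source of astrocytes. A fall here means a lower level in RGL. The genes that fell were Fgfr2, Fgfr3, Spry2, Etv4 and Etv5, that is members of all 3 groups, while Fgfr1, Spred1, Spry4 and Etv1 were not called. The median log2 change of all genes in this comparison was 0.27 under the TMM scaling used and 0.07 under RLE scaling, so each fall was larger relative to the median gene. With every nucleus thinned to 2000 UMIs, 1 of the 5 calls was left, that of Fgfr2.

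Fgfr3, a receptor with a narrow range of cell types in brain, stood at 215, 222 and 293 CPM in Astro of w1, w2 and w4. In RGL it was 100.5, 106, 89.1 and 73.3 CPM in w1, w2, w4 and w8. The RGL range lay wholly under that of Astro, and the log2 change was -1.28 ± 0.24 (SE; edgeR adjusted p = 7.05e-05).

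Etv5, a PEA3 factor expressed in glial progenitors, was 161, 125 and 97.5 CPM in Astro and 44.8, 61.1, 57.4 and 38.2 CPM in RGL. The groups did not overlap, and the log2 change was -1.27 ± 0.34 (SE; adjusted p = 0.00891). Without w1, where Astro was highest, it was -0.88 (adjusted p = 0.329).

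Spry2, a Sprouty inhibitor, was 123, 196 and 130.1 CPM in Astro against 58.3, 80.8, 53.7 and 63.7 CPM in RGL. All 4 RGL values were lower than the 3 of Astro, with a log2 change of -1.16 ± 0.30 (SE; adjusted p = 0.00547). The call was lost without w2 (log2 change -1.07, adjusted p = 0.114).

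Etv4 had 76.6, 142 and 173 CPM in Astro and 56.5, 65.8, 69.2 and 86.1 CPM in RGL. Its groups overlapped, since w8 of RGL was above w1 of Astro, and the call (log2 change -0.99 ± 0.31, adjusted p = 0.0275) was lost without w2, without w4 and without w8 (adjusted p = 0.198, 0.288 and 0.055). It was also lost with no library term, with no filter on low counts and with at least 20 nuclei per sum.

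Fgfr2 was 1310.1, 792 and 769 CPM in Astro, above every RGL library. Its log2 change to RGL was -0.68 ± 0.18 (SE; adjusted p = 0.00744), and this call was lost without w1 and without w4 (adjusted p = 0.17 and 0.146). With the library term left out, which drops the pairing of sums by library, 3 of the 5 genes were called, Fgfr2 and Etv4 not among them.

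At the step from RGL to NPC, the dividing progenitors of the lineage, 7 of the 10 genes fell and Etv1 rose, where 29.5% of all genes tested were called, 13.7% higher and 15.9% lower. All 3 receptors fell, as did Spry2 and Spred1 and the factors Etv4 and Etv5. In every comparison, what the Fgfr2 counts measure is limited by the annotation, as set out below.

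Of the called genes Etv4 had the largest log2 change. It was 56.5 to 86.1 CPM over the 4 RGL libraries and 2.00, 9.24 and 13.1 CPM in NPC of w1, w2 and w4, where it rested on 5 UMIs in all. The groups did not overlap, with a log2 change of -3.73 ± 0.48 (SE; adjusted p = 8.85e-09), a call made under every count-based alternative.

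Etv5 was 16.0, 27.7 and 26.2 CPM in NPC, with a log2 change of -1.58 ± 0.40 (SE; adjusted p = 0.0015). All lay below every RGL library, the lowest at 38.2 CPM. In NPC of w4, however, 3 UMIs would be 39.3 CPM, so that value is not shown to lie below all of RGL. Without w1 the adjusted p was 0.0576.

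The third PEA3 factor went the other way. Etv1 was 58.1, 80.1 and 144 CPM in NPC and 35.2, 41.3, 22.1 and 41.4 CPM in RGL. Every NPC value exceeded every RGL value, and the log2 change was 0.92 ± 0.30 (SE; adjusted p = 0.0138). The call was lost without w4, the highest NPC value (log2 change 0.65, adjusted p = 0.111), and with no library term (adjusted p = 0.0661). Etv1 was also 92.0 to 248 CPM in oligodendrocyte precursor cells (OPC), and the 5 OPC markers summed to 6.16 to 13.1 CPM in NPC, 0 to 10.8 in RGL and 1697 to 2186 in OPC.

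Fgfr1, a receptor tyrosine kinase for FGF ligands, fell from 349 ± 51.4 (SD, n = 4) CPM in RGL to 138 ± 29.0 (SD, n = 3) in NPC. The NPC values of 130.3, 114 and 170.4 CPM lay under the lowest RGL library (274 CPM, w8), and the log2 change was -1.82 ± 0.24 (SE; adjusted p = 1.49e-08). Fgfr3 fell to 50.1, 24.6 and 52.4 CPM, again with no overlap (log2 change -1.59 ± 0.27, adjusted p = 5.6e-06).

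Among the inhibitors Spry2 fell (log2 change -0.90 ± 0.30, adjusted p = 0.0165), but its groups overlapped. In NPC it was 24.0 CPM in w1 and 64.7 and 65.5 CPM in w2 and w4, inside the RGL range. The call was also lost in DESeq2 and with no library term. Without w1 the log2 change was -0.50 (adjusted p = 0.402), and scaling by total UMIs alone gave -0.61 (adjusted p = 0.134). Spred1, a membrane-bound inhibitor of Raf activation, fell from 167 ± 20.6 (SD, n = 4) to 127 ± 11.2 (SD, n = 3) CPM with no overlap (log2 change -0.78 ± 0.21, adjusted p = 0.0032), and by total UMIs alone it was not called (adjusted p = 0.0532).

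Spry4 was scarce throughout the lineage. It had 5 UMIs in Astro, 20 in RGL (3.28 CPM over the pooled nuclei) and 0 in NPC, where 3 UMIs, the floor used here, would be 3.28 CPM over the cluster. In the single NPC libraries 3 UMIs would be 6.01, 9.24 and 39.3 CPM in w1, w2 and w4, above the RGL values of the same libraries, so that the zeros of NPC show no direction. The change was not called (adjusted p = 0.0552), and no fold is given.

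**Figure D2:**
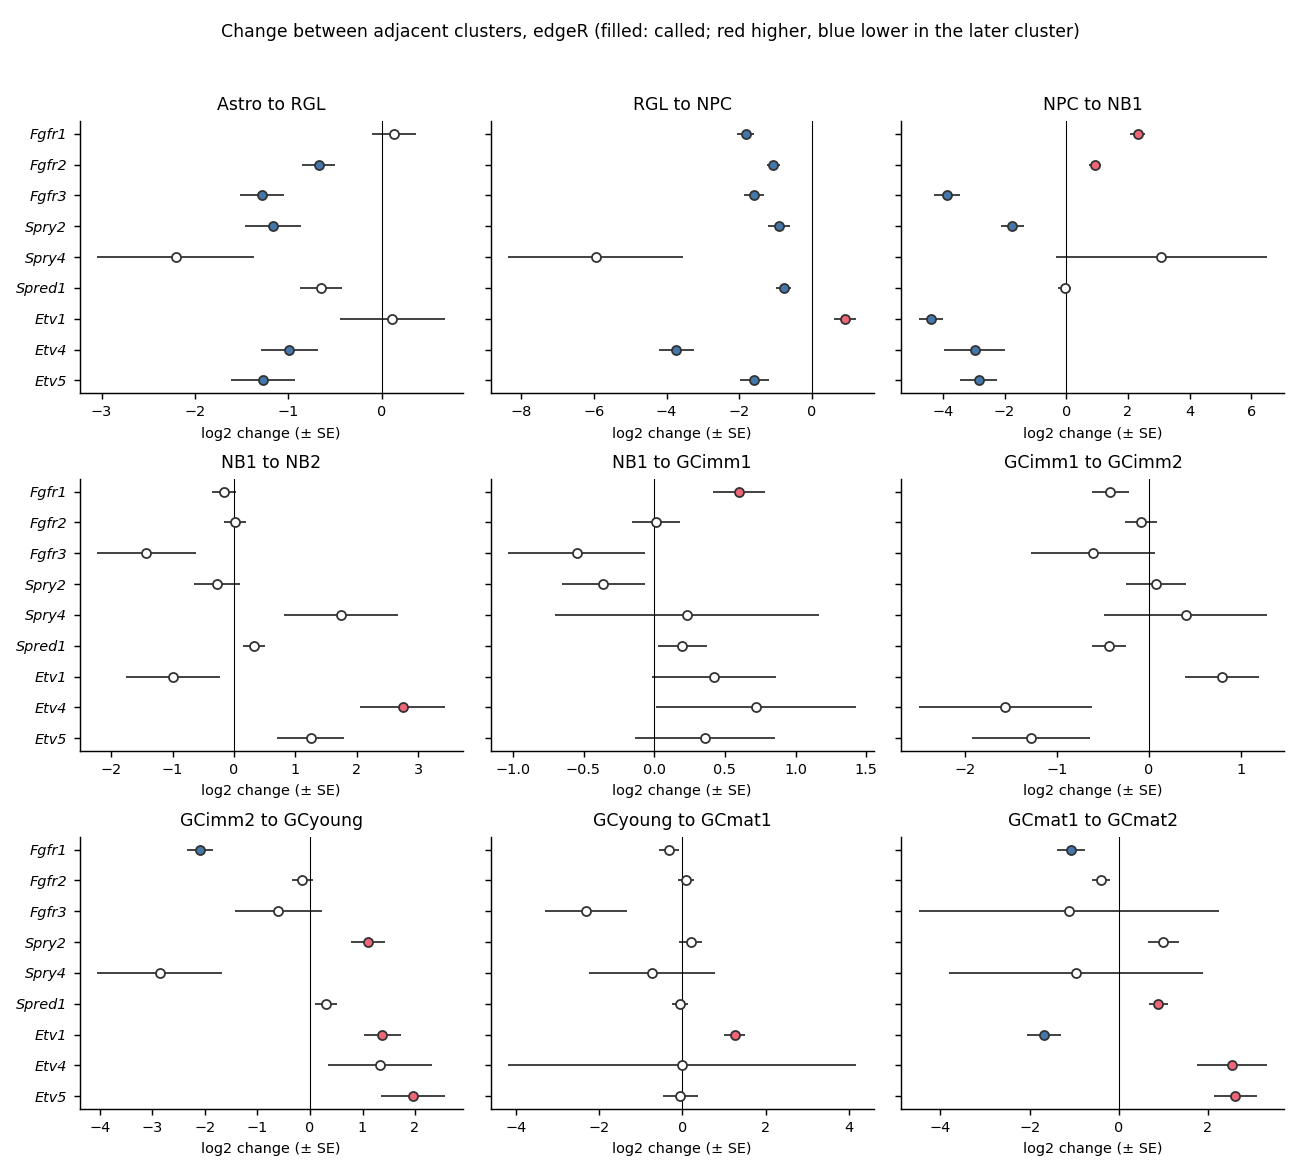
Log2 change from edgeR (horizontal axis, with its standard error) of the 9 genes tested in 9 comparisons of adjacent clusters; filled points were called, red for higher and blue for lower in the later cluster. From RGL to NPC 7 genes fell and Etv1 rose, and from NPC to NB1 Fgfr1 and Fgfr2 rose while 5 genes fell; horizontal axes differ between panels.

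At the next step, from NPC to the neuroblasts of NB1, the receptors parted. Fgfr1 and Fgfr2 rose and 5 genes fell, namely Fgfr3, Spry2, Etv1, Etv4 and Etv5, where 29.3% of all genes tested were called, 14.7% higher and 14.6% lower. Spred1 was not called (127 ± 11.2 (SD, n = 3) CPM in NPC and 101 ± 2.22 (SD, n = 3) CPM in NB1).

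Fgfr1 reached 578, 556 and 475 CPM in NB1 of w1, w2 and w4, above every NPC and every RGL library. Its log2 change from NPC was 2.31 ± 0.24 (SE; adjusted p = 2.09e-11). This call, like the fall from RGL to NPC, was made under every alternative tried.

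Fgfr3 fell to 1.73, 3.18 and 2.24 CPM, a log2 change of -3.86 ± 0.43 (SE; adjusted p = 1.44e-10). From NB1 on it held 25 UMIs in NB1, 19 in GCimm1, 1 in GCmat1 and 0 in GCmat2. In all neuronal clusters Fgfr3 was thus at a few CPM or less.

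Etv1 fell to 2.67, 3.18 and 4.48 CPM, the largest fall of the 9 genes tested at this step (log2 change -4.38 ± 0.40, adjusted p = 2.32e-13). Etv5 was 2.67, 1.22 and 8.96 CPM in NB1 (log2 change -2.84 ± 0.60, adjusted p = 0.00013). Both were below their NPC values in all 3 libraries. For Etv5 the NPC value of w4 lies under the floor of 3 UMIs (39.3 CPM), so that library shows no direction. Spry2 was 9.90, 11.3 and 11.2 CPM (log2 change -1.76 ± 0.37, adjusted p = 0.000139), a call lost without w2 (adjusted p = 0.0629). Etv4 had 5 UMIs in NPC and 6 in NB1, and its call (log2 change -2.96 ± 0.99, adjusted p = 0.0168) was lost without w2 and without w4 (adjusted p = 0.297 and 0.0611) and with thinned nuclei (adjusted p = 0.558).

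Fgfr2 fell from RGL to NPC (log2 change -1.06 ± 0.19, adjusted p = 8.52e-06) and rose from NPC to NB1 (0.92 ± 0.19, adjusted p = 0.000112), both under every count-based alternative. It was 674, 564, 460.1 and 717 CPM in RGL, 423, 382 and 249 CPM in NPC and 678, 581 and 432 CPM in NB1. In each library that holds all 3 clusters, NPC was the lowest.

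What the Fgfr2 values count is limited by the annotation. In GENCODE M21 the gene lies on the minus strand of chromosome 7 from 130162451 to 133123350, 2960900 bases, because of 1 of its 27 transcript models, while the next longest spans 103813 bases. All 13 counted protein-coding genes that lie wholly inside this span on the same strand had 0 UMIs in all nuclei, while the 16 on the opposite strand had 48464 UMIs and only 2 were at 0. With introns counted, UMIs of Fgfr2 may include those of other minus-strand transcripts in the span. Whether reads of the 13 same-strand genes were counted as Fgfr2 or left uncounted was not tested. The release the authors used is not given in the sources used here. The antisense gene Gm16159 lies inside Fgfr1 (chromosome 8, 25548661 to 25556083) with 2561 UMIs against 26863 of Fgfr1.

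Along the neuronal lineage the changes were fewer. From NB1 to NB2 Etv4 rose (1 of 10 genes, with 2.94% of all genes called, 1.81% higher and 1.13% lower) from 6 to 14 UMIs, 13 of them in w1, and without w1 the call was lost (adjusted p = 0.93), as it was with thinned nuclei (adjusted p = 0.0647). From NB1 to GCimm1, the first immature granule cells, Fgfr1 rose (1 of 10 genes, with 12.5% of all genes called, 7.76% higher and 4.75% lower).

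Fgfr1 was 774, 722 and 764 CPM in GCimm1, above NB1 in every library. The log2 change was 0.60 ± 0.18 (SE; adjusted p = 0.0183), close to the fold threshold, and the call was lost without w2, without w4, with no library term and by total UMIs alone. From GCimm1 to GCimm2 none of the 9 genes tested was called by edgeR, where 9.43% of all genes were (6.52% higher and 2.91% lower), and none by DESeq2. Fgfr1 and Spred1 had an unadjusted p under 0.05 in edgeR. By total UMIs alone 1 gene, Spred1, was called lower there.

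From GCimm2 to GCyoung Fgfr1 fell and Spry2, Etv1 and Etv5 rose (4 of 10 genes, with 18.9% of all genes called, 9.27% higher and 9.62% lower). Fgfr1 was 434, 535 and 486 CPM in GCimm2 of w2, w4 and w8 and 80.0 and 99.7 CPM in GCyoung of w4 and w8. The groups were far apart (log2 change -2.09 ± 0.24, SE; adjusted p = 1.01e-09), and the fall was called under every alternative tried.

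The 3 rises were less firm. Etv1 went from 5.79, 7.34 and 0 CPM to 13.7 and 16.0 CPM (log2 change 1.38 ± 0.36, adjusted p = 0.0029). The 0 is from w8, where 3 UMIs would be 20.0 CPM, above both GCyoung values, so it does not show a lower level. Etv5 had 74 UMIs in GCyoung of w4 and 0 in that of w8, so its rise (1.96 ± 0.61, adjusted p = 0.0151) rests on w4. In GCyoung of w8, 3 UMIs would be 2.09 CPM, above every GCimm2 library (at most 1.73 CPM), so that 0 shows no direction. The fitted change of -4.19 without w4 rests on the same 0 and is not read as a fall. Spry2 was 14.4 and 4.88 CPM in GCyoung, and its rise (1.10 ± 0.32, adjusted p = 0.00994) had overlapping groups and was also lost with no library term and by total UMIs alone. All 3 calls were lost in DESeq2, with nuclei thinned to 2000 UMIs, without w2 and without w4, which left Fgfr1 alone. By total UMIs alone 2 genes were higher and 2 were lower.

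From GCyoung to GCmat1 Etv1 rose (1 of 10 genes, with 3.85% of all genes called, 1.6% higher and 2.25% lower), reaching 12.8, 23.6 and 57.3 CPM in w1, w4 and w8. The log2 change was 1.25 ± 0.25 (SE; adjusted p = 0.000455). The groups overlapped at the w1 value, which rests on 2 UMIs, and the call was lost without w8 (adjusted p = 0.524) and in DESeq2 (adjusted p = 0.198). Within w4 and within w8, GCmat1 was higher than GCyoung. GCmat1 held 17 nuclei in w1, 403 in w4 and 2927 in w8. The paper reports this cluster primarily in w8. How nuclei of w1, collected 1 week after tamoxifen, came to be in it was not tested.

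GCmat2 differed from GCmat1 in 5 of the 10 genes (with 7.3% of all genes called, 3.01% higher and 4.28% lower). Spred1, Etv4 and Etv5 were higher and Fgfr1 and Etv1 lower, relative to a median of all genes of -0.14 on the log2 scale. The 5 markers listed for mature granule cells summed to 3923 to 4198 CPM in GCmat2 and 5069 to 5225 CPM in GCmat1. The 6 neuroblast markers summed to 352 to 460 CPM and 158 to 211 CPM. Rgs6 is on the latter list. The paper links this gene to running and reports it as higher in the smaller mature cluster. It classes that cluster as neurons probably electrically active before they were isolated. Of 41 other pathway genes tested, 3 were higher in GCmat2, namely Fgf1, Egr1 and Spred3, and 2 were lower, Ksr1 among them. Whether neuronal activity bears on the higher Spred1, Etv4 and Etv5 was not tested.

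Etv5 was 35.4 and 10.8 CPM in GCmat2 and 0, 2.50 and 2.53 CPM in GCmat1. The 0 is from w1, where 3 UMIs would be 19.2 CPM, so only w4 and w8 of GCmat1 are shown to lie under both GCmat2 values. The log2 change was 2.61 ± 0.49 (SE; adjusted p = 8.79e-05), a call made under every count-based alternative. Spred1 was 128 and 113 CPM against 38.4, 66.6 and 59.1 CPM, without overlap (log2 change 0.89 ± 0.21, adjusted p = 0.00319; 0.139 without w8).

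Etv4 rose on 7 UMIs in GCmat2 (log2 change 2.53 ± 0.79, adjusted p = 0.0333), and the call was lost without w4, without w8 and with thinned nuclei. Etv1 fell to 8.84 and 17.2 CPM (log2 change -1.68 ± 0.37, adjusted p = 0.00113; 0.498 without w8 and 0.153 in DESeq2). Fgfr1 was 50.8 and 24.4 CPM, against 99.0 and 49.4 CPM in GCmat1 of the same libraries, and its fall (-1.07 ± 0.32, adjusted p = 0.022) was lost without w4, without w8, with at least 5 nuclei per sum (adjusted p = 0.0889) and with nuclei thinned to 2000 UMIs (adjusted p = 0.507). The 7 astrocyte markers summed to 19.0 to 44.2 CPM in GCmat2 and 6.40 to 26.1 in GCmat1. The 5 oligodendrocyte markers summed to 112 to 115 CPM in GCmat2 and 38.4 to 77.6 in GCmat1. The 5 OPC markers were lower in GCmat2, at 0 to 0.90 CPM against 1.94 to 6.40. The part of glial RNA in the higher Etv4 and Etv5 was not tested.

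The order of the 10 clusters differed by gene. For Fgfr3 the fitted order was Astro, RGL, NPC and then the neurons, each of the first 3 above the next, and no difference was shown between neighbours among the neuronal clusters. For Etv4 it was Astro, RGL and then GCmat2 and NPC, between which no difference was shown. Spry2 and Etv5 also began with Astro and RGL, and the fitted level of GCmat2 was next, not shown to differ from RGL (adjusted p = 0.144 for Spry2 and 0.121 for Etv5). By total UMIs alone GCmat2 was below RGL for both (log2 difference -1.09 ± 0.35, adjusted p = 0.00995, and -1.27 ± 0.43, adjusted p = 0.0128), and NPC came before GCmat2 for Spry2 and Etv4. Etv1 was highest in NPC, with no difference shown between neighbours in its order under TMM scaling, where GCmat1 came next (log2 difference -0.54 ± 0.36, adjusted p = 0.238). By total UMIs alone GCmat1 was lower than NPC (-1.37 ± 0.37, adjusted p = 0.002). Fgfr1 led in GCimm1, GCimm2, NB1 and NB2, followed by RGL and Astro, and the first break came between Astro and GCyoung (adjusted p = 0.000385).

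Comparisons of NPC with the late neurons depended on scaling, since the TMM factors were 1.22 to 1.42 in NPC and 0.707 to 0.99 in GCmat1. Fgfr2 was higher in GCmat1 than in NPC with TMM factors (log2 difference 0.77 ± 0.20, adjusted p = 0.00151) and at 0.02 ± 0.17 by total UMIs alone (adjusted p = 0.939). Fgfr1 moved from 0.08 ± 0.28 to -0.77 ± 0.26, a change of sign. In the comparisons of adjacent clusters no called gene changed sign with the scaling.

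**Figure D3:**
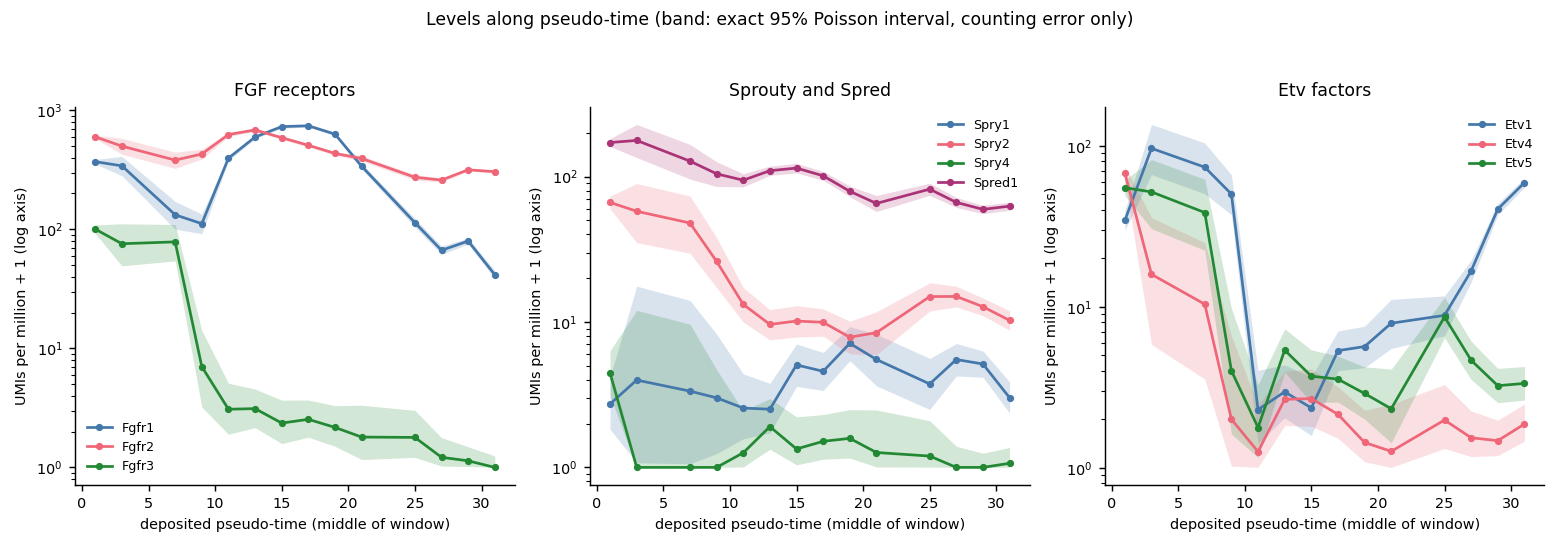
Level of each gene (vertical axis, CPM plus 1, log axis) along the deposited pseudo-time in windows of 2 units (horizontal axis, middle of the window), with the exact 95% Poisson interval as a band. Fgfr3, Etv4 and Etv5 drop before 10 units, and Fgfr1 climbs from 8 to 10 units, its lowest window before the peak, to the peak at 16 to 18 units and is lower still at the end.

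The deposited pseudo-time, which runs from RGL to GCmat1 without Astro and GCmat2, showed in which order the levels moved. Etv4 fell within the RGL part, from 66.8 CPM in the window from 0 to 2 units to 14.9 CPM from 2 to 4 units, a window of 70 nuclei that were 87.1% RGL. In the same window Etv1 was 95.5 CPM, up from 33.4, while Etv5 was 50.8 against 54.0 and Fgfr3 74.6 against 99.3. The counting intervals of the first and the second window did not overlap for Etv4 and Etv1 and overlapped for Etv5 and Fgfr3, where Etv4 rested on 5 UMIs.

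Fgfr3 dropped between the windows from 6 to 8 (77.4 CPM) and from 8 to 10 units (6.03 CPM). Between the same windows Etv5 dropped from 37.5 to 3.01 CPM, on 16 and 3 UMIs. NPC made up 75.2% of the nuclei from 6 to 8 units and 55.6% from 8 to 10 units, so the mix of clusters also changed. Spry2 declined more slowly, through 46.9, 25.1, 12.2 and 8.62 CPM in the windows starting at 6, 8, 10 and 12 units. Fgfr1 was lowest of the early windows at 8 to 10 units (110.5 CPM), was 395 CPM in the next one and peaked at 739.8 CPM from 16 to 18 units. It then fell to 40.5 CPM in the last window, while Etv1 rose from 6.91 CPM at 20 to 22 units to 58.1 CPM. These windows pool libraries and carry no test. Windows with fewer than 20 nuclei were left out, so none is given from 4 to 6 or from 22 to 24 units.

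A UMI of at least 1 of Fgfr3, Spry2, Etv4 and Etv5 was found, with each nucleus thinned to 2000 UMIs, in 64.2% of Astro nuclei (exact 95% interval 51.5% to 75.5%, 67 nuclei), 40.5% of RGL (37.9% to 43.2%) and 17.0% of NPC (12.1% to 22.8%). The share was 3.50% in NB1 and 2.95% in GCmat1, and 9.09% in GCmat2 (5.56% to 13.8%). In OPC, which no test covered, the share was 65.6% (56.9% to 73.7%, 131 nuclei). All 4 genes had been called lower from Astro to RGL and from RGL to NPC in these counts. The order of the shares of Astro, RGL and NPC is thus no further support. Oligodendrocytes, which had 0 UMIs of these 4 genes, are no measure of background for them. Unthinned, the shares were 82.1%, 61.7% and 30.8% in Astro, RGL and NPC, with median depths of 4670, 4091 and 4278 UMIs, and 5.82% and 9.89% in NB1 and GCmat1, with 4057.5 and 8138 UMIs. These intervals cover counting error only.

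**Figure D4:**
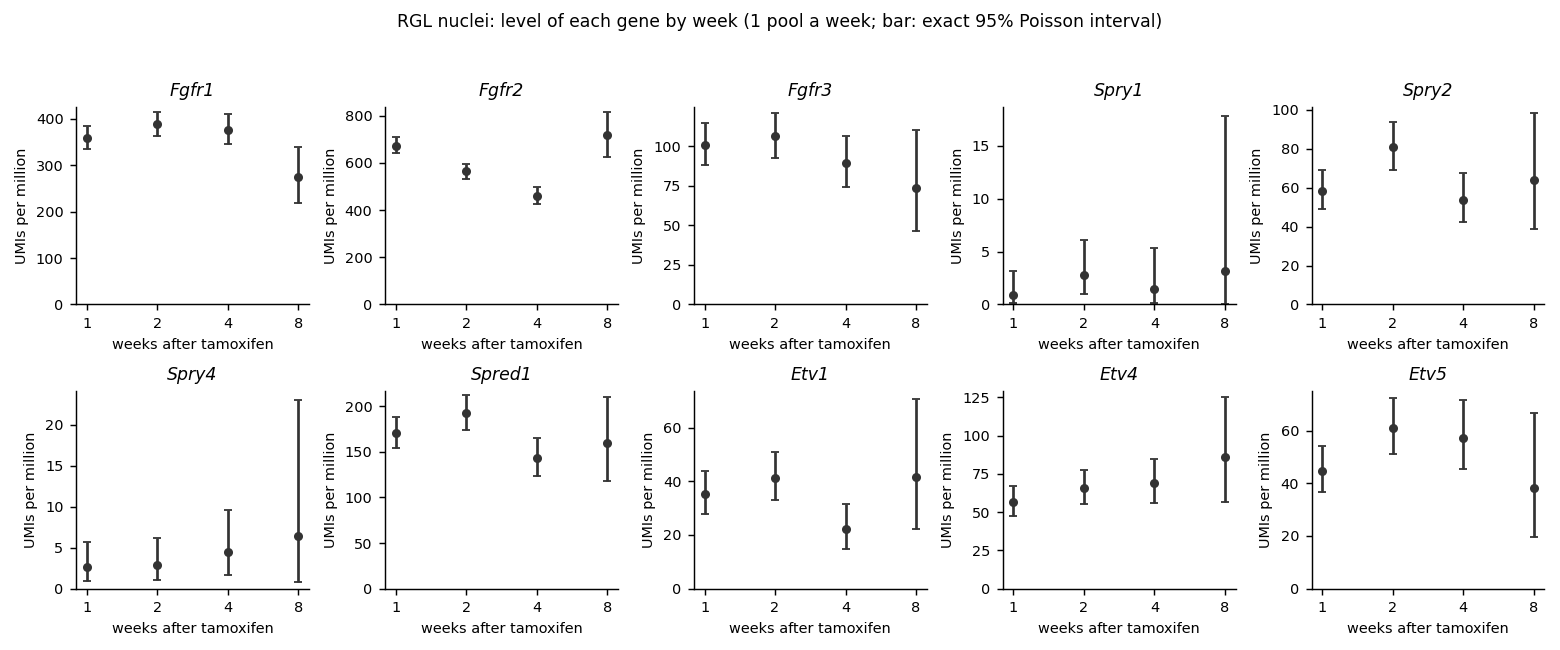
Level of each gene in RGL nuclei (vertical axis, CPM) by weeks after tamoxifen (horizontal axis); a point is the 1 pool of that week and the bar its exact 95% Poisson interval. Fgfr2 goes from 674 at week 1 to 460 at week 4 and 717 at week 8, and the intervals of Etv4, Fgfr3 and Spry4 overlap throughout.

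Within RGL the weeks were compared as values only, since each is 1 pool. Fgfr1 was 274 (95% interval 219 to 339) CPM at week 8 and 359 to 388 CPM at the earlier weeks. Etv4 was 56.5, 65.8, 69.2 and 86.1 (95% interval 56.7 to 125) CPM at weeks 1, 2, 4 and 8, with overlapping intervals. Etv1 was 22.1 (95% interval 14.9 to 31.5) CPM at week 4 and 41.3 (95% interval 33.2 to 50.9) CPM at week 2. The 4 libraries held 486, 461, 357 and 83 RGL nuclei, so that week 8 had the widest intervals. The 7 astrocyte markers summed to 401, 424, 371 and 631 CPM in RGL at weeks 1, 2, 4 and 8, lowest at week 4 and highest at week 8 as Fgfr2 was. Of the other genes called higher in Astro, Fgfr3 and Etv5 were lowest at week 8 (73.3 and 38.2 CPM). Etv4 was highest at week 8 and Spry2 at week 2. Fgfr2 was lowest in w4 in 11 of 12 clusters. The part of the astrocyte markers in these values was not tested.

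Among all 13 clusters, OPC, which no test covered, had the highest CPM for 5 of the 10 genes. Etv4 was 238, 277, 244 and 306 CPM in OPC, Etv5 156 to 204 CPM, Spry4 31.3 to 66.8 CPM and Spry1 27.8 to 48.6 CPM. Spry1 was otherwise scarce, with 0 UMIs in Astro, 11 in RGL and at most 5.21 CPM in any of the 10 clusters of the fit with its libraries pooled. Fgfr3 was nearly missing from OPC (3 UMIs), while Fgfr2 was 2142 to 2476 CPM in oligodendrocytes, where Fgfr1, Fgfr3, Sprouty genes, Etv4 and Etv5 had 0 UMIs among 219664. Spry2, Spred1, Etv4 and Etv5 were thus among the genes well above 0 in both OPC and Astro, and Fgfr3 in Astro alone of these clusters.

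Of 61 other listed genes of the pathway, 41 were tested. From Astro to RGL Fgf1, an FGF ligand, fell (log2 change -1.67 ± 0.32, adjusted p = 0.000139) and Araf, a Raf kinase, rose (0.83 ± 0.28, adjusted p = 0.0472), 2 of 41 beside the 9.58% of all genes.

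From RGL to NPC 4 rose and 7 fell, 26.8% of the 41 where 29.5% of all genes were called. The ligands Fgf1 (-3.58 ± 0.56, adjusted p = 8.19e-07) and Fgf20 (-2.83), the receptor-like Fgfrl1 (-1.76), the adaptor Gab1 (-1.07), the scaffold Ksr1 (-1.72) and the inhibitors Il17rd (-2.11) and Spred3 (-2.66) fell on the log2 scale. Among those that rose were the MAP kinase gene Mapk3 (1.21) and Flrt1 and Flrt2 (1.28 and 1.22), membrane proteins that bind FGF receptors. The median log2 change was -0.06 over the 41 and -0.05 over all genes tested, against -1.58 over the 9 members tested, a list drawn up with such results known.

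From NPC to NB1 6 rose and 4 fell, 24.4% of the 41 where 29.3% of all genes were called. The ligand genes Fgf9 (2.93 ± 1.02, adjusted p = 0.0231) and Fgf1 (2.72 ± 0.62, adjusted p = 0.000385) rose together with Fgfr1, as did Flrt1 (2.16), Flrt3 (1.74), Araf (0.72) and the MAP kinase phosphatase gene Dusp4 (2.20). Flrt2 (-1.93), Gab1 (-1.48), Map2k1 (-0.62), which encodes Mek, and the immediate early gene Egr1 (-2.27) fell. In the later comparisons the share of the 41 that was called went from 7.32% from GCyoung to GCmat1, beside 3.85% of all genes, to 31.7% from GCimm2 to GCyoung, beside 18.9%.

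As a description over the 29 sums, which share libraries and differ in depth, the genes most alike to each member by Pearson's r of log2 CPM among 13504 genes were as follows. For Fgfr3 they were Slco1c1 (r = 0.986), C030037D09Rik (r = 0.983) and Acsbg1 (r = 0.979), and for Etv4 Arhgap5 (r = 0.954), 9430041J12Rik (r = 0.948) and Slc7a11 (r = 0.94). For Fgfr1 the most alike was its own antisense gene, Gm16159 (r = 0.955), followed by Lypd6 (r = 0.874) and Pde4b (r = 0.872). Spry2 was closest to Itgav (r = 0.898), Etv5 to Neat1 (r = 0.892), Etv1 to Asap1 (r = 0.847), Spred1 to Sept7 (r = 0.854), Spry4 to Gjb6 (r = 0.939) and Fgfr2 to Clmn (r = 0.825). Among the 9 members tested, the closest pairs were Etv4 with Etv5 (r = 0.872), Fgfr3 with Etv4 (r = 0.869) and Spry2 with Etv5 (r = 0.831).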

How the data were processed

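Nuclei sorted from 4 libraries were profiled by 10x 3′ sequencing. The authors aligned reads with STARsolo (2.7.4a in the submitters' processing notes) to GRCm38/mm10, excluded multi-mapped reads and deposited raw UMI counts over exons and introns. They removed doublets with scDblFinder, low-quality nuclei and a set of w4 nuclei, and deposited a log2 table (counts divided by scran size factors, with 1 added) with the cluster and pseudo-time of 14367 nuclei, which were used here as given. The annotation release is not given in the sources used here. The authors processed 2 time points per day, and which ones is not stated, so day and library cannot be told apart.

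Raw counts were summed per library and cluster (at least 10 nuclei, 29 sums) and fitted with edgeR 4.0.16 in R 4.3.3 (filterByExpr, TMM, quasi-likelihood test, terms for cluster and library, 16 residual degrees of freedom), with Benjamini-Hochberg adjustment over 13513 genes. A call needed a fold change of 1.5 and an adjusted p of 0.05. The step was tested on simulated data. Levels, exact Poisson and Clopper-Pearson intervals (95%) and the floor of 3 counts used Python 3.11.15 with numpy 2.4.6, pandas 2.3.3 and scipy 1.17.1, and figures matplotlib 3.10.9. Intervals and floors cover counting error only. The log2 table entered only an alternative, with limma 3.58.1.

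The members and all gene lists were chosen with earlier results of these data known. Named genes were the 10 members, pathway genes called in the first 3 comparisons and, for each member, up to 3 genes with the highest Pearson correlation. Alternatives were RLE factors, DESeq2 1.42.0, no library term, no filter on low counts, no fold threshold, at least 5 or 20 nuclei per sum, nuclei thinned to 2000 UMIs, the log2 table, and each library left out. Scaling by total UMIs alone was added after the data were seen. RefSeq promoters (GRCm38.p6) and GENCODE M21 gave sequences and positions, and 45143 of 45706 feature IDs were in the latter. The driver of the Cre and some genes of the pathway list are not reported here by name.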

Additional observations from a re-analysis of the deposited data

Results flagged for a closer look

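Spry1 in OPC stood at 48.65 CPM in w2, apart from the other 3 libraries at 27.8 to 31.3 CPM, with a gap of 0.834 of the range against a critical value of 0.829 (Dixon's test at 95%). It rests on 10 UMIs in w2 and 4 to 5 in the others. Of 20 groups of 4 libraries tested 1 was flagged, and chance flags about 1 in 20.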

How the results depend on the processing

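Of 32 called changes of single genes, 11 were called under every count-based alternative. The alternative with no fold threshold cannot remove a call, and it gave 32 of the pairs that stayed called. Over 445 pairs of a change and an alternative, 361 stayed called, 83 kept their direction without a call and 1 had the opposite sign. This was Etv5 from GCimm2 to GCyoung without w4 (-4.19), a value that rests on 0 UMIs in GCyoung of w8 and shows no direction. Without each other library that change was 1.58 to 2.12. The library term was the block, since sums of 1 library share a pool. Without this block 3 genes were called from Astro to RGL and 0 from NB1 to GCimm1, and 6 of the 32 changes lost their call.

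With nuclei thinned to 2000 UMIs, 1 gene was called from Astro to RGL, 0 from NB1 to NB2, 1 from GCimm2 to GCyoung and 3 from GCmat1 to GCmat2. DESeq2 called 1 from GCimm2 to GCyoung and 0 from GCyoung to GCmat1. Total UMIs alone gave 0 from NB1 to GCimm1 and 1 from GCimm1 to GCimm2. With limma on the deposited log2 means the number was 0 from Astro to RGL, 1 from RGL to NPC, 1 from NPC to NB1, 0 from NB1 to NB2, 1 from GCimm2 to GCyoung, 0 from GCyoung to GCmat1 and 0 from GCmat1 to GCmat2. Fgfr2 had no value on this scale, so its calls were not tested there. Folds on this scale, with 1 added per nucleus, are compressed by construction. Leaving out 1 library gave 3 to 4 from Astro to RGL, 6 to 8 from RGL to NPC, 5 to 7 from NPC to NB1, 0 to 1 from NB1 to NB2, 0 to 1 from NB1 to GCimm1, 0 in every case from GCimm1 to GCimm2, 1 to 4 from GCimm2 to GCyoung, 0 to 1 from GCyoung to GCmat1 and 1 to 5 from GCmat1 to GCmat2. Where this left a cluster with 1 sum, that sum was assumed to vary like the others.

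Thinning lowered the share of nuclei with a UMI of Fgfr3, Spry2, Etv4 or Etv5 to 64.2% in Astro, 40.5% in RGL, 17.0% in NPC, 3.50% in NB1, 3.12% in NB2, 2.71% in GCimm1, 2.15% in GCimm2, 3.63% in GCyoung, 2.95% in GCmat1 and 9.09% in GCmat2. Depth limits Spry1, Spry4 and, from NPC on, Etv4, which rest on few UMIs.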

Other observations

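Chosen after its values were seen, the order of libraries within clusters was uneven for Fgfr2. Of the 12 clusters measured in w4 and in another library, Fgfr2 was lowest in w4 in 11, and of the 9 such clusters with w1 it was highest in w1 in 8. Fgfr1 was lowest in w4 in 4 of the 12. Each week is 1 pool, so week, pool, processing day and any difference in the age of the mice cannot be told apart. No test was made.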
